A study of Mus musculus with 4 samples.

Results

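The cells described here carried a productive T-cell receptor beta chain (TRB) and no productive alpha chain (TRA), and are called TRB-only cells. They were chosen by the deposited chain and productive calls alone: a barcode was kept when it had at least 1 productive TRB contig and 0 productive TRA contigs. Of 234 cells with a productive chain, 67 were TRB-only, 40 of 74 in the control library and 27 of 160 in the ATRA library. They were compared with the 151 paired cells, 30 control and 121 ATRA, which had at least 1 productive contig of each chain. The study addressed retinoic acid signaling in gliomas with mutant IDH. Both groups were C57BL6 mice that received 50000 neurosphere cells in the striatum at 6 weeks of age. One group was given all-trans retinoic acid (ATRA, a derivative of vitamin A) at 10 mg/kg into the peritoneum, the other a control, each every other day until signs of disease in the brain. CD45+ immune cells sorted from the tumors gave 1 receptor library per treatment, so no test between treatments or classes was run, and any gap between the libraries cannot be told apart from a gap between preparations. The identity of the neurosphere line, what the control was, and the number of mice are not given in the sources used here.

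An alpha-beta T cell binds its antigen through a receptor of a TRA and a TRB chain, and both are needed at the surface of a mature cell. The TRB is joined first in the thymus, from V, D and J segments, and is tested there with a surrogate alpha chain; the TRA is joined afterwards from V and J segments. TRA joining goes on at both alleles and can be repeated, so a T cell often carries a second TRA that is out of frame. The CDR3, the loop that spans the junction, differs most between cells, and cells with the same CDR3 nucleotides and segments usually descend from 1 cell. In a droplet library a chain is seen only when its RNA was captured, so a barcode without a TRA contig is not by itself a cell without an alpha chain.

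Of the 40 control TRB-only cells, 8 carried a TRB that was also found in a paired cell of the same library, with the same V, J and CDR3 nucleotides. The same held for 6 of the 27 ATRA TRB-only cells. These cells held 11 TRBs, 5 in control and 6 in ATRA. Their CDR3s are shown because they are the chains for which a paired cell gives a candidate TRA. Each runs 5′ to 3′, with the first and last 4 codons in lower case and the inner codons in capitals. This cut is fixed and was not placed by the junction, which can reach into the lower-case codons.
Control TRBV29 TRBJ2-1: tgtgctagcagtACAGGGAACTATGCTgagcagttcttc
Control TRBV12-2+TRBV13-2 TRBJ1-1: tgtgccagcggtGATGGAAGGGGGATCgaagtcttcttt
Control TRBV26 TRBJ2-1: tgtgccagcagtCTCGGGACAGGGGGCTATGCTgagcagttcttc
Control TRBV13-1 TRBJ2-3: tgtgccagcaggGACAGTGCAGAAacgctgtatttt
Control TRBV14 TRBJ2-1: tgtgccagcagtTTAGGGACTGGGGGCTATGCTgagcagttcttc
ATRA TRBV26 TRBJ2-1, in 7 paired cells: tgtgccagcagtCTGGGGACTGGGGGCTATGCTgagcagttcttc
ATRA TRBV13-1 TRBJ2-7: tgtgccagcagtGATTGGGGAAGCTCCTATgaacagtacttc
ATRA TRBV29 TRBJ1-2: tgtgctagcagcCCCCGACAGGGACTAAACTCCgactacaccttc
ATRA TRBV26 TRBJ2-1, in 2 paired cells: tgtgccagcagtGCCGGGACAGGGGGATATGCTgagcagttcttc
ATRA TRBV14 TRBJ2-1: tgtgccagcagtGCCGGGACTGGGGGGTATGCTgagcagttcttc
ATRA TRBV16 TRBJ1-1: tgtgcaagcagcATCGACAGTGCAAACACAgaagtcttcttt

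Of these 11 TRBs, 6 join TRBJ2-1 to TRBV26, TRBV14 or TRBV29. Over all cells, TRBJ2-1 was in 30.0% of control and 33.3% of ATRA TRB-only cells, and in 30.0% and 29.8% of paired cells. The share of these V and J pairs over all TRBs was not compared, so the count is a description only. In the RefSeq annotation of GRCm38.p6, which is of the build named in the submitters' processing notes, TRBJ2-1 lies on chromosome 6 from 41542754 to 41542803. TRBV26 lies on the same chromosome from 41227525 to 41227913, TRBV14 from 41135167 to 41135616, and TRBV29 from 41271403 to 41271881, where that annotation lists a V segment pseudogene although its contigs were called productive here. The name TRBV12-2+TRBV13-2 is a fused segment in the deposited tables and had no match in the annotation.

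The control library held 159 contigs with 382 UMIs on productive chains, and the ATRA library 496 contigs with 1841. A UMI, or unique molecular identifier, marks 1 captured RNA molecule. The libraries had 0 barcodes in common. The closest barcode to that of any TRB-only cell differed at 4 bases in each library, and the closest with the same TRB at 8 bases in control and 7 in ATRA. Among the contigs of TRB-only cells, 0 were of a gamma, delta or immunoglobulin chain or joined loci. Whether these libraries could capture such chains was not tested. Of their nonproductive TRA contigs, 0 had the segments of invariant natural killer T or mucosal-associated invariant T cells. A cell with a productive TRA of that kind is not TRB-only by the rule. Besides, 35 of 40 control and 14 of 27 ATRA TRB-only cells had no TRA contig. These counts of 0 therefore do not tell what kind of cell the TRB-only cells were. Markers from expression were not analysed here, so the T-cell label rests on the receptor contigs. All shares below carry exact Clopper-Pearson 95% intervals, which cover counting error only; cells of 1 clone are not independent.

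TRB-only cells made up 57.1% of the 70 control cells that had a TRB (44.7% to 68.9%), and 18.2% of the 148 in ATRA (12.4% to 25.4%). These shares follow from the calls that chose the cells and are given as a description. Further cells had a TRA only, 4 in control and 12 in ATRA. Cells were also thinned to 4 productive receptor UMIs each, which left out 22 control and 8 ATRA cells. The share with no TRA was then 60.2% in control and 35.4% in ATRA, against 55.8% and 18.9% in the same cells unthinned. The thinning matched only the total of productive UMIs per cell; TRB UMIs and reads per UMI were not matched.

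By TRB UMIs alone, TRB-only cells were not the weakest cells. In control they held a median of 4 TRB UMIs (quartiles 3 and 6, range 2 to 11), against 2 in paired cells (quartiles 2 and 3, range 1 to 25). In ATRA the median was 6 in both classes, with quartiles of 5 and 8 and a range of 4 to 24 in TRB-only cells, and 4 and 10 and 1 to 32 in paired cells. The classes overlapped over most of their range in both libraries, and they parted at the low end. TRB counts of 1 to 3 UMIs were found in 11 of 40 control TRB-only cells and in 23 of 30 paired ones. In ATRA they were found in 0 of 27 TRB-only cells, which allows a share of up to 11.1%, and in 28 of 121 paired cells (23.1%, 16.0% to 31.7%). Over all productive UMIs the medians were 4 in both classes in control, and 6 in TRB-only against 10 in paired cells in ATRA. The fewest productive UMIs in any cell of either library was 2, and TRA-only cells also started at 2. A TRB-only cell holds all its productive UMIs on TRB, while a paired cell can have 1 TRB UMI. How the deposited cell calls were made, and so the part they play in these lower ends, was not tested.

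**Figure D1:**
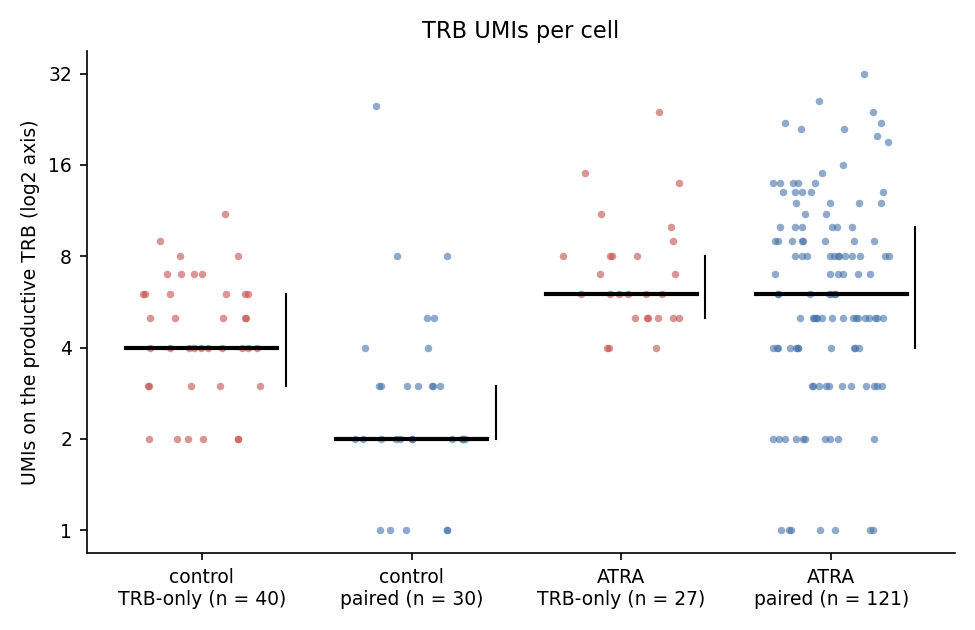
UMIs on the strongest productive TRB of each cell (log2 axis), for TRB-only (red) and paired (blue) cells of both libraries; each point is 1 cell, spread sideways at random, bars are medians and side lines quartiles. The lowest TRB-only cell has 2 UMIs in control and 4 in ATRA, while paired cells reach down to 1 in both.

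The 5 control TRB-only cells with most TRB UMIs carried TRBV19 TRBJ1-6 with 11 UMIs, TRBV3 TRBJ2-1 with 9, TRBV29 TRBJ2-1 and TRBV16 TRBJ2-7 with 8 each, and TRBV13-1 TRBJ2-3 with 7. Of these only the TRBV29 chain was in a paired cell. The CDR3 of the first, from a cell with no productive TRA beside 11 TRB molecules, is given here in the same notation.
Control TRBV19 TRBJ1-6: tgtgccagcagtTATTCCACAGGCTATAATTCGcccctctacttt
ATRA TRBV15 TRBJ2-7: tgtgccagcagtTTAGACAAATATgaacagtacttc
The second is that of the ATRA TRB-only cell with most TRB UMIs, 24 on TRBV15 TRBJ2-7. It was followed by TRBV5 TRBJ1-1 with 15, TRBV31 TRBJ2-5 with 14, TRBV16 TRBJ2-7 with 11 and TRBV14 TRBJ2-1 with 10, of which only the TRBV14 chain was in a paired cell. The TRBV15 cell and the TRBV5 cell each carried a second productive TRB.

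The share of cells with no TRA changed with TRB UMIs and was highest at 5 to 8 in both libraries. In control it was 0 of 5 at 1 UMI, 35.3% of 17 at 2 and 62.5% of 24 at 3 to 4. It was then 81.0% of 21 at 5 to 8 and 2 of 3 at 9 and over. In ATRA it was 0 of 7 at 1 UMI and 0 of 10 at 2, then 3 of 25 at 3 to 4, 30.5% of 59 at 5 to 8 and 12.8% of 47 at 9 and over. At 5 to 8 UMIs the control interval was 58.1% to 94.6% and the ATRA interval 19.2% to 43.9%. At 9 and over they were 9.43% to 99.2% and 4.83% to 25.7%. In each library these overlap the intervals at 5 to 8, so no change of direction is read from them. No cell of either table had 1 TRB UMI and no other productive UMI. That leaves the class at 1 UMI without TRB-only cells, so its 0 is not read as a sampled share.

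**Figure D2:**
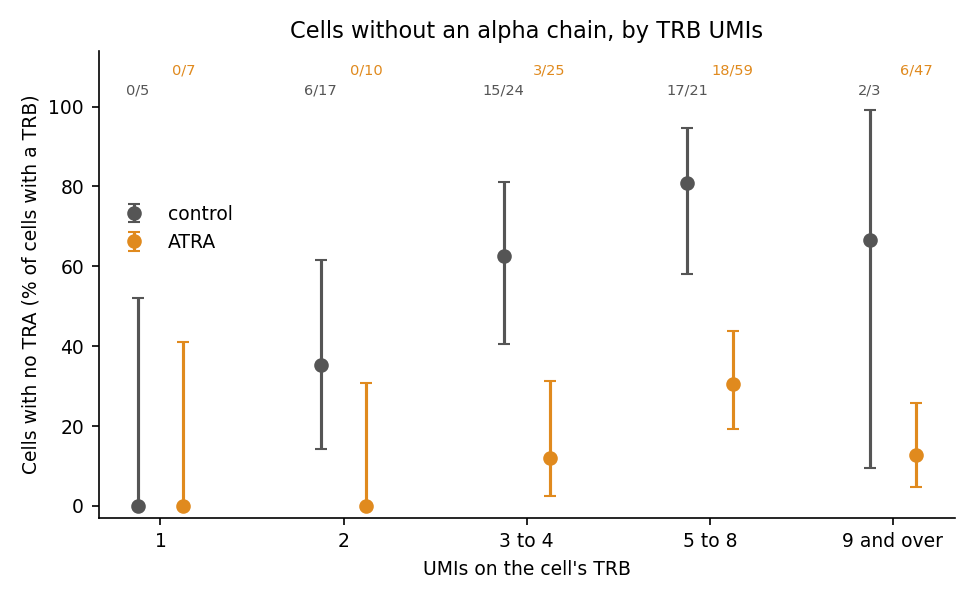
Share of cells with a TRB that had no productive TRA (%), by UMIs on the TRB, for control (grey) and ATRA (orange); bars are exact 95% intervals and the fractions above give TRB-only cells over cells with a TRB. Control lies above ATRA at 2 UMIs and over, with 81.0% against 30.5% at 5 to 8.

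The TRB of TRB-only cells took up more of the barcode's reads. The TRB contig held a median of 63617 reads in control TRB-only cells against 35025 in paired cells, and 56190 against 32562 in ATRA. The total reads per barcode were close, with medians of 75441.5 and 75318 in control and 72291 and 72952 in ATRA. The highest barcode of each library, at 77245 and 76703 reads, lay just above these medians. So the TRB held a median of 100% of the barcode's reads in control TRB-only cells and 46.3% in control paired cells. In ATRA it held 81.4% and 45.0%. By the rule a TRB-only cell has no productive TRA to take up reads, so these gaps follow in part from the choice of cells. They are given as a description. Reads per TRB UMI had medians of 12518.5 and 13472.8 in control, and 8433 and 5067 in ATRA. UMIs rather than reads are therefore used as the measure of depth. The TRA of paired cells was thinly sampled too: it had a median of 2 UMIs in control and 4 in ATRA, and 1 UMI in all in 11 of 30 control (36.7%) and 17 of 121 ATRA cells (14.0%).

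A nonproductive TRA contig, one that the deposited call marks as not encoding a full chain, was found in 5 of 40 control TRB-only cells (12.5%, 4.19% to 26.8%) and 3 of 30 paired cells (10.0%, 2.11% to 26.5%). In ATRA it was found in 13 of 27 TRB-only cells (48.1%, 28.7% to 68.1%) and 49 of 121 paired cells (40.5%, 31.7% to 49.8%). Within each library the intervals of both classes overlapped widely. With only contigs that have a CDR3, the ATRA shares were 37.0% of TRB-only cells (19.4% to 57.6%) and 15.7% of paired cells (9.73% to 23.4%), whose intervals overlapped by less. In control they were 7.50% (1.57% to 20.4%) and 6.67% (0.818% to 22.1%). Most TRB-only cells, 35 of 40 in control and 14 of 27 in ATRA, had no TRA contig of any kind.

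The nonproductive TRA contigs were also sorted by the state of their CDR3. A contig was counted as having an intact CDR3 when its CDR3 had no stop, began like that of a productive TRA and ended like that of a productive TRA with the same J. Such contigs were in 3 of 40 control TRB-only cells (7.50%, 1.57% to 20.4%) and 0 of 30 paired cells, which allows up to 10.0%. In ATRA they were in 6 of 27 TRB-only cells (22.2%, 8.62% to 42.3%) and 3 of 121 paired cells (2.48%, 0.514% to 7.07%), where the intervals did not overlap. Contigs under 100 reads, a group set apart by its read counts, made up 3 of the 6 and 1 of the 3. Without them the ATRA shares were 3 of 27 (11.1%, 2.35% to 29.2%) and 2 of 121 (1.65%, 0.201% to 5.84%), with intervals that overlapped. This definition was made after the contigs had been seen, and it is read as a description. The rule bears on this comparison, since a cell whose only TRA contig is called nonproductive is TRB-only by definition.

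Of the 9 intact contigs of TRB-only cells, 4 had many UMIs on very few reads. They are printed because their nucleotides are those of productive TRAs in other cells of the same library.
Control TRAV9-2 TRAJ31: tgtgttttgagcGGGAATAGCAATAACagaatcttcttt
ATRA TRAV21-DV12 TRAJ53: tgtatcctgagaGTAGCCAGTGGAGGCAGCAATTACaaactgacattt
The control contig had 14 UMIs on 51 reads and was 420 bases long. The same TRA was productive in 3 control cells, and the TRB of the cell that held the nonproductive copy, TRBV13-1 TRBJ2-3, was in 1 paired cell, which had TRAV4D-3 TRAJ56 instead. The ATRA contig occurred in 3 TRB-only cells, with 21 UMIs on 27 reads, 15 on 25 and 11 on 16, at 314, 352 and 341 bases. It was productive in 10 ATRA cells. The TRBs of 2 of those 3 TRB-only cells were in 4 and 2 paired cells, of which 0 carried a TRA with these nucleotides. In each of these sets 2 paired cells had TRAV21-DV12 TRAJ53 with the same amino acids in another nucleotide form. TRAV21-DV12 lies on chromosome 14 from 53876016 to 53876752 and TRAJ53 from 54162644 to 54162709 in GRCm38.p6.

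The other 5 intact contigs were on 11070 to 23404 reads each. In control they were TRAV9D-3 TRAJ56, with 7 UMIs and 14032 reads in the TRBV19 TRBJ1-6 cell printed above, and TRAV4-4-DV10 TRAJ52, with 2 UMIs and 23404 reads. In ATRA they were TRAV9N-4 TRAJ43 with 3 UMIs and 18084 reads, TRAV7N-6 TRAJ26 with 3 and 13871, and TRAV19 TRAJ56 with 1 and 11070. None of these 5 matched a productive TRA of another cell (0 cells). Nonproductive contigs of TRB-only cells, like the paired ones, otherwise lacked a V, a J or a CDR3, or had a CDR3 with another end or frame: 2 of 5 contigs in control and 9 of 15 in ATRA.

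**Figure D3:**
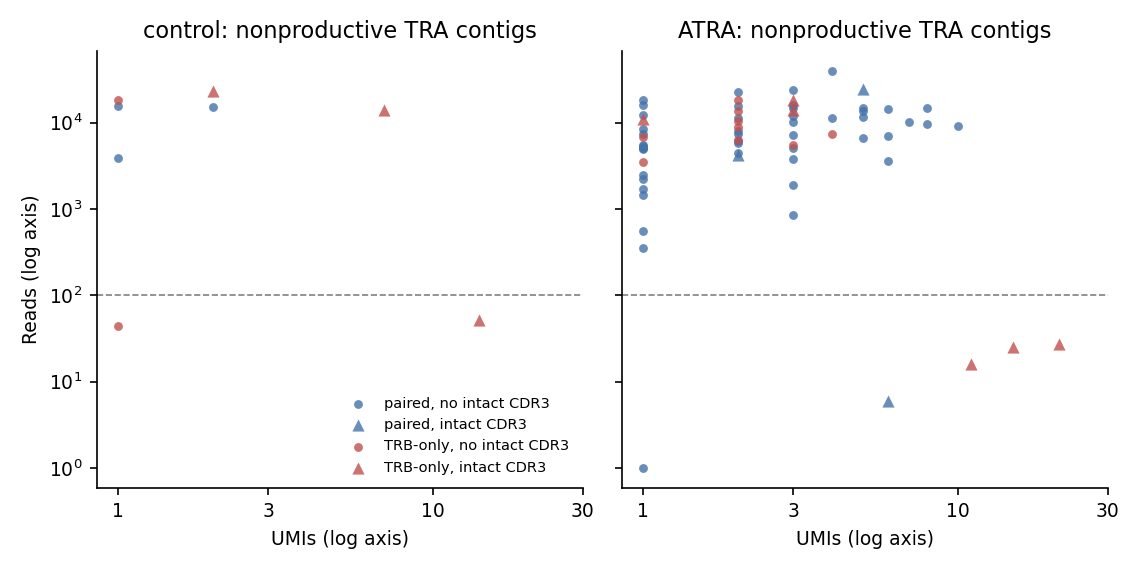
UMIs and reads of each nonproductive TRA contig (both axes log), with TRB-only cells in red, paired cells in blue and intact CDR3s as triangles; the dashed line is at 100 reads. The 4 red triangles under the line, 1 control and 3 ATRA, have 11 to 21 UMIs on 16 to 51 reads.

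Contigs on few reads formed a group of their own in both libraries. The 13 control contigs under 100 reads had at most 51 reads and the next contig had 750, and the 18 ATRA ones had at most 27 with the next at 355. Of these, 5 of 63 contigs in control TRB-only cells and 7 of 59 in ATRA TRB-only cells were in the low group, and 0 were productive. Paired cells had 6 of 89 in control, 3 of them productive, and 10 of 402 in ATRA, 2 of them productive. Without their contigs under 100 reads, 3 of 30 control and 2 of 121 ATRA paired cells would not be paired. In ATRA TRB-only cells all 7 had the V, J and CDR3 of a contig in another cell, while in control 1 of the 3 with a CDR3 did. In paired cells 5 of 6 did in control and 8 of 10 in ATRA, so such matches were not particular to TRB-only cells. The intact TRA contigs under 100 reads in TRB-only cells were shorter than every productive TRA contig, of which the shortest had 461 bases in control and 501 in ATRA. Short length was not particular to them. Among the intact contigs on more reads, TRAV9D-3 TRAJ56 had 426 bases and TRAV4-4-DV10 TRAJ52 had 455 in control. In ATRA, TRAV9N-4 TRAJ43 had 497, while TRAV7N-6 TRAJ26 had 503 and TRAV19 TRAJ56 had 537. Whether RNA or reads from other barcodes gave the contigs under 100 reads was not tested.

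Counted over cells, a recurring TRB was found in a smaller share of TRB-only than of paired cells in both libraries, with intervals that overlapped. In control 8 of 40 TRB-only cells (20.0%, 9.05% to 35.6%) shared their TRB with a paired cell, and 11 of 30 paired cells (36.7%, 19.9% to 56.1%) with another paired cell. In ATRA the shares were 6 of 27 (22.2%, 8.62% to 42.3%) and 62 of 121 (51.2%, 42.0% to 60.4%). Counted over distinct TRBs, so that cells with the same TRB count once, the shares were 13.5% and 14.8% in control. They were 20.0% and 25.8% in ATRA, and most of the gap was gone. A TRB of paired cells recurs only when further paired cells carry it, so counting it once lowers the paired share more. The narrowing therefore follows in part from the unit. With at least 3 UMIs per chain the control direction turned, with 6.98% of TRB-only cells against 0 of 5 paired cells. As a share of all possible pairs of cells, TRB-only with paired matched in 1.75% of 1200 in control and 0.582% of 3267 in ATRA. Paired with paired matched in 2.53% of 435 and 1.23% of 7260. Of the control TRB-only cells, 5 shared their TRB with another TRB-only cell, and 0 of the 27 ATRA ones did (up to 11.1%). A paired cell of the other library held the TRB of 3 control TRB-only cells and of 0 ATRA ones. The remaining 32 control and 21 ATRA TRB-only cells had a TRB that was in no paired cell of their library. Their median TRB UMIs were 4 and 6, against 4.5 and 7.5 in those whose TRB did recur.

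The control TRBV29 TRBJ2-1 chain was in 3 TRB-only cells with 5, 5 and 8 TRB UMIs and 3 paired cells with 2, 2 and 3. All TRB-only values lay above all paired values. All 3 paired cells had TRAV9-2 TRAJ31, the TRA printed above, on 1 to 3 UMIs. The fused TRBV12-2+TRBV13-2 chain with TRBJ1-1 was in 2 TRB-only cells with 4 and 7 TRB UMIs and 4 paired cells with 2, 2, 2 and 3, again without overlap. Its 4 paired cells had 3 different TRAs: TRAV16D-DV11 TRAJ23 in 2 cells, and TRAV12-2 TRAJ26 and TRAV9N-4 TRAJ40 in 1 each. The TRAV9N-4 cell had this TRB on 2 UMIs and 4 reads, and without it 3 paired cells with 2 TRAs were left. The paired cells therefore gave 1 candidate TRA for the first chain and more than 1 for the second. Whether the TRB-only cells carried any of these TRAs was not tested. These 2 chains were the only TRBs carried by more than 1 TRB-only cell of a library.

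The other 3 control chains were each in 1 TRB-only cell. TRBV26 TRBJ2-1 had 3 TRB UMIs there and 2 and 8 in its paired cells, both with TRAV21-DV12 TRAJ53. TRBV13-1 TRBJ2-3 had 4 against 3, and TRBV14 TRBJ2-1 had 2 against 3, with TRAV21-DV12 TRAJ56 in the paired cell. For these chains the TRB-only value lay near or between the paired ones.

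In ATRA the TRBV26 TRBJ2-1 chain of 7 paired cells had 5 TRB UMIs in its TRB-only cell and 5 to 12 in the paired cells. Of the paired cells 6 had TRAV21-DV12 TRAJ53 and 1 TRAV14D-3-DV8 TRAJ56. The TRB-only cell held 2 nonproductive TRA contigs, TRAJ32 without a V and TRAV10 TRAJ56, and neither was the TRA of those paired cells. TRBV13-1 TRBJ2-7 had 7 TRB UMIs against 9, 11, 12 and 30, with TRAV5D-4 TRAJ37 in 3 cells and TRAV21-DV12 TRAJ53 in 2. Its 4 paired cells held 5 TRA chains, and 1 of them had both of these TRAs. TRBV29 TRBJ1-2 had 5 against 1, 5, 8 and 22, with TRAV4-4-DV10 TRAJ49 in 3 cells and TRAV7-4 TRAJ32 in 1. The TRAV7-4 cell was the one with 1 TRB UMI, on 1 read, and without it all 3 paired cells had the same TRA. The TRB-only cell was below all paired cells for the TRBV13-1 chain and level with the lowest for the TRBV26 chain, and for the TRBV29 chain once the contig on 1 read is set aside.

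The other 3 ATRA chains had 1 or 2 paired cells each, and 1 TRA each by segments and amino acids. The second TRBV26 TRBJ2-1 chain had 9 TRB UMIs in the TRB-only cell against 3 and 5, with TRAV21-DV12 TRAJ53. TRBV14 TRBJ2-1 had 10 against 2, with TRAV21-DV12 TRAJ56. TRBV16 TRBJ1-1 had 8 against 14, with TRAV6N-6 TRAJ40. Here the TRB-only cell was above the paired ones for the first 2 chains and below for the third.

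**Figure D4:**
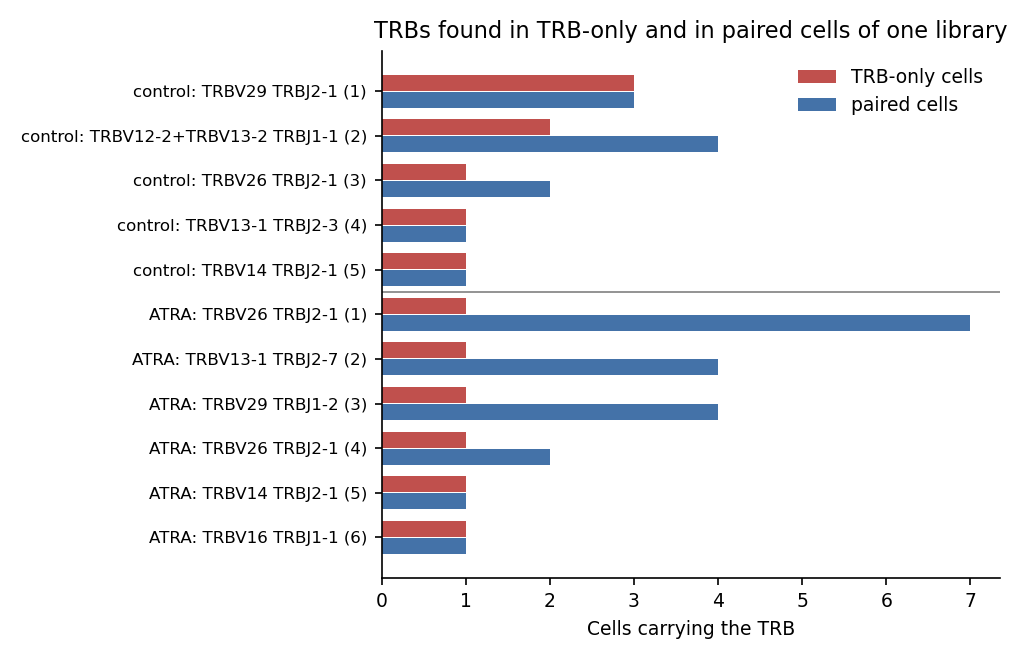
Cells carrying each of the 11 TRBs found both in TRB-only (red) and in paired (blue) cells of a library; numbers in brackets give the order within the library. The control TRBV29 chain has 3 cells of each class, while in ATRA each chain has 1 TRB-only cell and up to 7 paired cells.

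Matched by amino acid CDR3 alone, 11 of 40 control and 9 of 27 ATRA TRB-only cells had a paired counterpart. The shares were the same, 27.5% and 33.3%, when V and J had to match too. So some chains encoded the same loop through other nucleotides with the same segments. A single amino acid CDR3 on TRBV26 or TRBV14 with TRBJ2-1 accounted for 5 control and 2 ATRA TRB-only cells, each with nucleotides of its own. Over these 7 nucleotide forms, 5 of 45 bases varied, and they are in capitals here.
Control TRBV14, also in 1 paired cell: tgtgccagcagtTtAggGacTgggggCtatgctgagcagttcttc
Control TRBV26, also in 2 paired cells: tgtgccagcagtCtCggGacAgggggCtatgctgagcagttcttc
Control TRBV26: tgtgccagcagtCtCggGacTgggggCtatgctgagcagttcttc
Control TRBV26: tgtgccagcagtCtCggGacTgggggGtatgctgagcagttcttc
Control TRBV26: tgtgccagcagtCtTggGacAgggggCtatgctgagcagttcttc
ATRA TRBV26, also in 7 paired cells: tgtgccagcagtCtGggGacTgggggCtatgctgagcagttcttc
ATRA TRBV26: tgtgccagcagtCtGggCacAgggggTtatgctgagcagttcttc
This CDR3 was carried by 4 of 30 control and 12 of 121 ATRA paired cells, so its share in TRB-only cells, 12.5% (4.19% to 26.8%) and 7.41% (0.910% to 24.3%), was within counting error of 13.3% and 9.92%. It was singled out after its values had been seen.

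No gap in V or J use between TRB-only and paired cells was larger than the counting error of these numbers. The most used V names in control TRB-only cells were the fused TRBV12-2+TRBV13-2, TRBV19 and TRBV26, with 6 of 40 cells each (15.0%). In ATRA TRB-only cells they were TRBV13-1 with 4 of 27 (14.8%) and the fused name, TRBV16 and TRBV26 with 3 each (11.1%). TRBJ2-1 led in both libraries, with 12 of 40 control (30.0%) and 9 of 27 ATRA cells (33.3%), against 30.0% and 29.8% of paired cells. It was followed by TRBJ2-7 with 8 and TRBJ1-1, TRBJ2-2 and TRBJ2-3 with 4 each in control, and by TRBJ1-1 and TRBJ2-7 with 4 each in ATRA. Segments of the TRBJ2 cluster were in 30 of 40 control TRB-only cells (75.0%, 58.8% to 87.3%) and 20 of 30 paired ones (66.7%). In ATRA they were in 19 of 27 (70.4%, 49.8% to 86.2%) and 76 of 121 (62.8%). The TRBV13 family without the fused name was in 3 of 40 control and 5 of 27 ATRA TRB-only cells, and the TRBV12 family in 1 and 1.

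Among segments with at least 5 cells in a library, the share differed by 2-fold or more between TRB-only and paired cells for 7 of 14 in control (50% of those compared, 14.3% higher and 35.7% lower in TRB-only cells). A count of 0 was taken as 3 counts for this purpose. In ATRA it did for 9 of 26 (34.6%, with 23.1% higher and 11.5% lower). The 26 include TRBV2, TRBJ1-6 and TRBJ2-3, which had 0 TRB-only cells. Taken at 3 counts, these could not be called lower. Past 3-fold were 1 of 14 in control (7.14%) and 2 of 26 in ATRA (7.69%). The exact 95% interval of the ratio included 1 for all 16 ratios past 2-fold, so counting error alone spans each of them.

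In control, TRBJ2-7 was in 8 of 40 TRB-only and 2 of 30 paired cells, a ratio of 3.00 (0.599 to 29.0). TRBV19 was in 6 and 2 cells, a ratio of 2.25 (0.402 to 22.8). TRBV1, TRBV13-1, TRBJ1-1, TRBJ1-6 and TRBJ2-5 each had a ratio of 0.5, on 2 to 4 TRB-only cells. In ATRA, TRBV16 was in 3 of 27 TRB-only and 2 of 121 paired cells, a ratio of 6.72 (0.770 to 80.5), and TRBJ2-5 in 3 and 5, a ratio of 2.69. The 3 TRBV16 chains had TRBJ1-1, TRBJ1-3 and TRBJ2-7, so they were not 1 clone. TRBV1, TRBV3, TRBV31 and TRBJ1-3 each had 2 TRB-only and 4 paired cells, a ratio of 2.24. TRBV5 was in 1 of 27 TRB-only cells, a ratio of 0.299 (0.00710 to 1.94), and TRBV19 had a ratio of 0.448. TRBV2, TRBJ1-6 and TRBJ2-3 were in 0 ATRA TRB-only cells, which allows up to 11.1%, against 5, 10 and 8 paired cells. TRBV1, TRBV19 and TRBJ2-5 passed 2-fold in both libraries and did so in opposite directions.

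**Figure D5:**
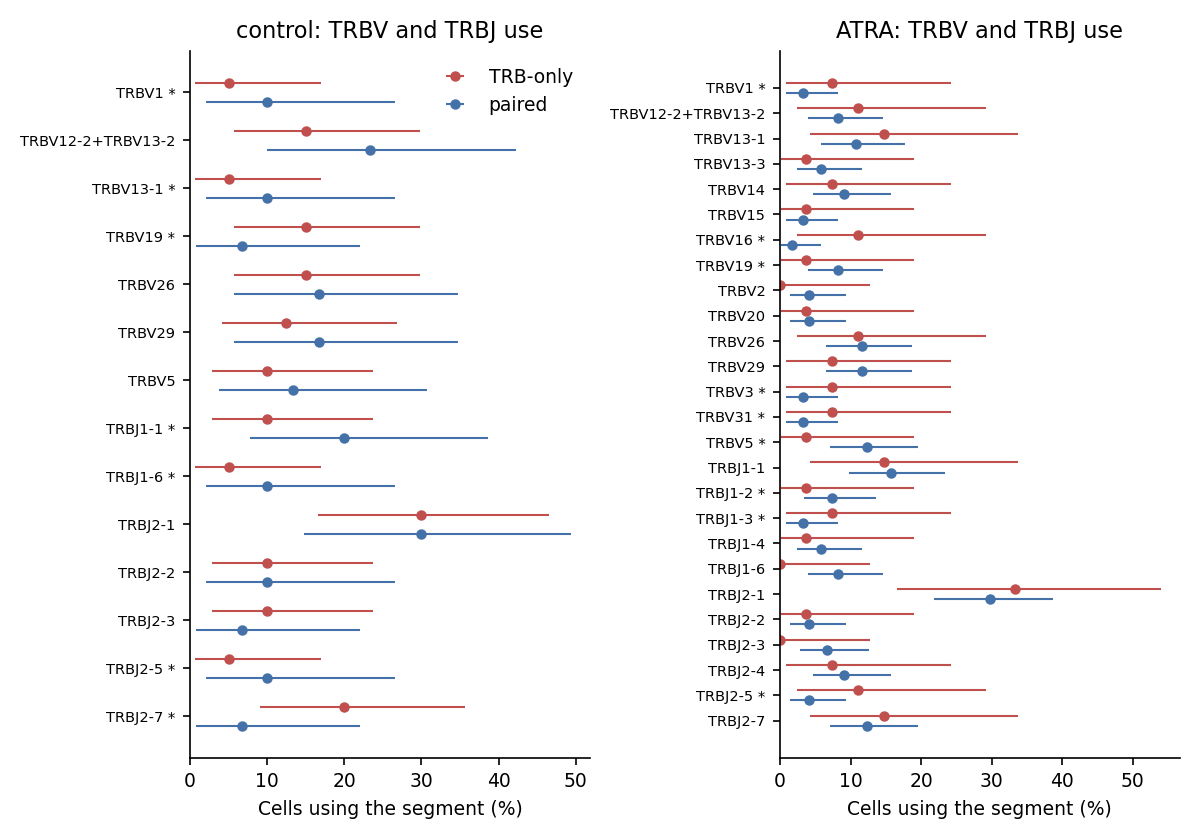
Share of TRB-only (red) and paired (blue) cells using each TRBV and TRBJ segment with at least 5 cells in the library (%), with exact 95% intervals; a star marks a share that differs 2-fold or more. The intervals of both classes overlap for every segment drawn, TRBV16 in ATRA included.

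The features of the CDR3s are given as means over chains, and no test of the classes was run. Over distinct TRBs the length was 14.2 ± 1.34 residues in control TRB-only cells (SD, n = 37 chains) and 13.9 ± 1.25 in paired cells (n = 27). In ATRA it was 13.9 ± 1.22 (n = 30) and 14.0 ± 1.33 (n = 89). TRB-only CDR3s ran from 11 to 16 residues in control and 12 to 17 in ATRA. Net charge, counted as lysine and arginine minus aspartate and glutamate, was −1.14 ± 0.98 and −1.04 ± 0.90 in control, and −0.87 ± 0.78 and −0.74 ± 0.99 in ATRA. Hydrophobic residues (alanine, isoleucine, leucine, methionine, valine, phenylalanine, tryptophan and tyrosine) made up 32.1% ± 18.9 of the inner CDR3 in control TRB-only cells and 25.5% ± 17.3 in paired cells, and 27.6% ± 20.2 and 27.2% ± 19.2 in ATRA.

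A second productive TRB was present in 0 of 40 control TRB-only cells (up to 7.50%) and 3 of 27 ATRA ones (11.1%, 2.35% to 29.2%). Paired cells had 4 of 30 and 10 of 121. The 3 ATRA cells paired TRBV15 with TRBV19, TRBV5 with TRBV12-1, and TRBV1 with TRBV13-3, and the stronger chain had 24, 15 and 6 UMIs against 6, 7 and 4. A nonproductive TRB contig was in 16 of 40 control (40.0%) and 11 of 27 ATRA TRB-only cells (40.7%), against 16 of 30 and 68 of 121 paired cells.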

How the data were processed

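T-cell receptor contigs, which are transcripts assembled from the reads of 1 barcode, were analysed from 1 control and 1 ATRA library of sorted mouse cells (gene expression: not analysed here). Each contig comes with a deposited count of UMIs and a count of reads, not normalized per the file headers, beside contig lengths in bases (another unit), segment names, CDR3s and productive calls. Cell Ranger 3.1.0, bcl2fastq 2.20.0 and the build GRCm38 were used, per the submitters' processing notes. The members, lists and alternatives were chosen with earlier results of these data known, and contigs were kept at 1 UMI and over.

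A TRB was the same when V, J and CDR3 nucleotides were the same. The strongest productive TRB of a cell gave its UMIs. Segment use was compared for segments with at least 5 cells in a library, as a ratio of shares with an exact conditional interval, and called at 2-fold. Named were every TRB shared with a paired cell or by TRB-only cells, the 5 TRB-only cells with most TRB UMIs, the 3 most used TRBV and TRBJ with ties, and up to 8 segments past 2-fold in each library. Inner CDR3 residues left out 4 at each end. Where a count was 0, 3 counts set the limit of the share. Thinning used the exact hypergeometric expectation. No doublet caller was run. Receptor reads were not corrected for swaps between barcodes here, and intervals leave out differences between mice. Segment names matched RefSeq for 30 of 31. The intervals and matching were tested on simulated data. Analyses used Python 3.11.15, pandas 2.3.3, numpy 2.4.6, scipy 1.17.1 and matplotlib 3.10.9. Alternatives required 2 or 3 UMIs for a chain, or took other definitions of a match, a nonproductive TRA and a unit, another fold, and matched or thinned depth. Leaving out contigs under 100 reads, and counting an intact nonproductive TRA as an alpha chain, were added after the data had been seen.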

Additional observations from a re-analysis of the deposited data

Results flagged for a closer look

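The following TRB-only minus paired differences, or ratios, had opposite signs in the control and ATRA libraries; with 1 library per treatment the difference between libraries was not tested. A second productive TRB was less frequent in TRB-only cells by 13.3 percentage points in control (-13.3) and more frequent by 2.85 in ATRA. A contig under 100 reads was at -7.5 percentage points in control and 14.8 in ATRA. The TRBV13 family without the fused name was at -2.5 and 0.337 percentage points, and the mean CDR3 length at 0.273 and -0.0884 residues. The sign of the CDR3 length in ATRA was not stable: it was 0.0390 without cells with extra chains and 0.0444 with intact nonproductive TRAs counted as alpha chains. The control value was 0.884 at 2 UMIs per chain. The ratio of TRB-only to paired shares was 0.5 in control and 2.69 in ATRA for TRBJ2-5, 0.5 and 2.24 for TRBV1, and 2.25 and 0.448 for TRBV19. These segment ratios rest on 1 to 6 TRB-only cells each, and their intervals include 1. Nonproductive TRB contigs, which enter no comparison of the chains, were present in 40.7% of ATRA TRB-only cells and 40.0% of control ones.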

How the results depend on the processing

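Of 148 values under alternatives for 18 results, 117 stayed within the range set for the reported value and 31 did not. The cause was not tested except where the alternative takes in fewer cells. That range was an interval for shares and median ratios, and a limit on the fold for counts of segments. For CDR3 length and charge it was the SD of single chains, so even a change of sign stayed within it. The 117 also take in the values for contigs marked False, which could not change. The share of cells with a TRB that had no TRA became 78.5% (control) and 31.2% (ATRA) at a minimum of 2 UMIs per chain, 89.6% and 45.8% at 3, 81.0% and 30.5% in cells with 5 to 8 TRB UMIs, and 35.4% in ATRA after thinning. With intact nonproductive TRAs counted as alpha chains it was 52.9% and 14.2%. The control ratio of median TRB UMIs, 2 as reported, was 1.25 at a minimum of 3 UMIs and 1.33 at a minimum of 2. It was also 1.33 over the UMIs of all productive TRBs, with contigs under 100 reads left out, and with intact nonproductive TRAs counted. It was 1.82 on reads and stayed at 2 without cells with extra chains. The ATRA ratio, 1 as reported, was 1.73 on reads. Paired cells with a nonproductive TRA were 0% in control at 3 UMIs and at 5 to 8 TRB UMIs (5 and 4 cells), and 15.7% in ATRA with only contigs that have a CDR3 (TRB-only cells: 37.0%). The share of TRB-only cells whose TRB was in a paired cell became 6.98% in control at 3 UMIs, 7.5% and 0% against the other library, and 0% in ATRA against other TRB-only cells. For paired cells that share became 0% and 40.8% at 3 UMIs, 14.8% and 25.8% over distinct TRBs (TRB-only: 13.5% and 20.0%), 16.7% and 3.31% against the other library, and 15.7% in ATRA against TRB-only cells. Segments past 2-fold numbered 2 in control and 5 in ATRA at 2 UMIs, 2 in control at 3 UMIs, 3 and 5 without cells with extra chains, 1 and 2 past 3-fold, and 4 in ATRA over distinct TRBs. TRBV16 in ATRA was past 2-fold in 6 of 6 alternatives, TRBJ2-7 in control in 4, and TRBJ1-2 in ATRA in 0. All nonproductive contigs were marked False, so that alternative changed nothing. No library could be left out, since each treatment had 1. No paired analysis was possible because each treatment had 1 library.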
